A study of Homo sapiens with 9 samples.

Results

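Aldehyde dehydrogenases (ALDH) are NAD(P)+-dependent enzymes that oxidise aldehydes to carboxylic acids. A catalytic cysteine attacks the aldehyde, and the resulting intermediate hands its hydride to the cofactor before the acid is released. Different members take different aldehydes, from retinal and ethanol-derived acetaldehyde to fatty aldehydes and the semialdehydes of amino acid breakdown, and high ALDH activity is widely used to sort stem-like cells from carcinomas. The 10 genes described here were listed by symbol and matched to 10 of the 60880 Ensembl gene IDs in the count data: ALDH1A1, ALDH1A3, ALDH2, ALDH3A1, ALDH3A2, ALDH3B1, ALDH5A1, ALDH6A1, ALDH7A1 and ALDH9A1. They were chosen by earlier values of these same libraries, their levels and differences in NR, SP and Ab, so their differences from the antibody group are given as descriptions, without a test. The 9 remaining human ALDH genes, 19 in all with the listed ones, are set beside them.

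The labels give SNU5, an established human gastric carcinoma line, as the source of all 9 libraries, and no untreated group was analysed here. Cells were treated for 24 h with gold nanorods carrying the antibody ramucirumab through PEG (AuNR-Peg-Ab, the NR group), with gold nanospheres carrying it in the same way (AuSP-Peg-Ab, the SP group), or with free ramucirumab (the Ab group). Ramucirumab, an antibody against the receptor VEGFR2, was at 8 μg/mL in all 3 groups, so every group carried the antibody and only NR and SP carried gold and PEG. Each group had 3 RNA sequencing libraries. Their depth ran from 13863155 to 25735410 counts for NR, from 20601906 to 22914759 for SP and from 19566064 to 26318227 for Ab. The study calls the samples of a group biological replicates and its in vitro experiments independently repeated, while the labels do not say whether the libraries came from separate cultures, so p-values measure the spread between these libraries.

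The labelled cell type was checked against fixed marker genes. Of the 9 epithelial markers, the keratin KRT8 was the most abundant, at 632 to 667 CPM (counts divided by the TMM-scaled library size, times 10 to the power 6) in Ab and 1868 to 2030 CPM in NR and SP, and KRT18, CLDN4, MUC1 and MET were present in every library. KRT19 was at the floor in all 9 libraries, and the adhesion gene CDH1 was at 0.19 to 0.43 CPM in Ab (5 to 9 counts a library) and 5.50 to 7.26 CPM in NR and SP. EPCAM and CLDN7, also on the list, had enough counts to be tested, and their levels are not given here. The summed epithelial level was 1201 to 1248 CPM in Ab and 2693 to 2853 CPM in NR and SP. Of 8 tested with edgeR in NR against Ab, 5 rose, 1 fell and 2 did not pass an adjusted p of 0.05. In SP against Ab, 5 of 8 rose, 0 fell and 3 did not pass. Of all genes tested, 36.4% rose and 36.4% fell in NR, and 36.4% and 36.6% in SP. The floor is an expected count of 3, the most that a count of 0 allows, and was 0.114 to 0.216 CPM depending on the library. Floors and intervals of this kind cover counting error only.

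Every other marker list summed to less than the epithelial list in each library, but not all of these markers were near the floor, and some moved with the groups. Of the 4 fibroblast markers, COL1A1 was the most abundant, at a mean of 33.4 CPM over all libraries, and the list summed to 66.7 to 77.5 CPM in NR and SP and 16.3 to 40.8 CPM in Ab. Its gene DCN was at 19.4 to 21.9 CPM in NR and SP and 0.33 to 0.79 CPM in Ab. COL1A2 had 37, 0 and 0 counts in NR libraries 1, 2 and 3 and 198, 278 and 33 counts in those of Ab, so single libraries differed within a group. The endothelial list, led by CDH5 and with TEK at the floor throughout, summed to 20.8 to 24.3 CPM in NR and SP and 3.53 to 5.07 CPM in Ab. The leukocyte markers PTPRC, CD3E and CD68 and the hepatocyte markers ALB, APOA1 and CYP3A4 were at the floor in every library, and the erythroid list summed to at most 0.644 CPM. The neuron list, of RBFOX3 and SNAP25, summed to 0.562 to 1.20 CPM in NR and SP and 1.84 to 2.53 CPM in Ab, and its most abundant gene RBFOX3 fell by 2.47 on the log2 scale in NR (edgeR adjusted p = 3.82e-06) and by 2.70 in SP (adjusted p = 3.45e-06). Mitochondrial genes took 4.36% to 4.66% of the counts in NR and SP and 3.41% to 3.71% in Ab. The markers thus do not match in full between the Ab and the particle libraries or with an epithelial line, the identity of the cells was not tested, and each difference from Ab is one between libraries as labelled. The part of these marker differences in the ALDH values was not tested. In such bulk libraries, fewer cells of a kind and less RNA per cell cannot be told apart.

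Of the 10 listed genes, 9 had enough counts for a comparison, and 8 of these were higher with either particle than with free antibody. ALDH3A1, ALDH6A1, ALDH7A1 and ALDH5A1 were more than 2-fold higher in NR and in SP, ALDH2 was slightly lower, and ALDH1A1 was near 0 everywhere. In no listed gene did NR and SP differ by the test. Each pair of groups went through the quasi-likelihood test of edgeR over all genes, with Benjamini-Hochberg adjustment. Calls required both a 2-fold difference and adjusted p no larger than 0.05. By that rule 4 of the 9 were called higher and 0 lower in NR against Ab, where 12.4% of the 15009 genes tested were called higher and 10.3% lower. The same 4 genes were called higher in SP against Ab, where the shares of the 15068 genes tested were 12.6% higher and 10.6% lower. By the adjusted p alone, 8 of the 9 were higher and 1 lower in both comparisons. For NR that rule passed 36.4% of all genes as higher and 36.4% as lower, and for SP it passed 36.4% as higher and 36.6% as lower. The median log2 fold change of the 9 was 0.95 for NR and 0.996 for SP, beside -0.0055 and -0.0067 for all genes tested. NR and SP were compared with the same Ab libraries. Since the listed genes were chosen with these values known, the counts describe the list and are no test of it.

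**Figure D1:**
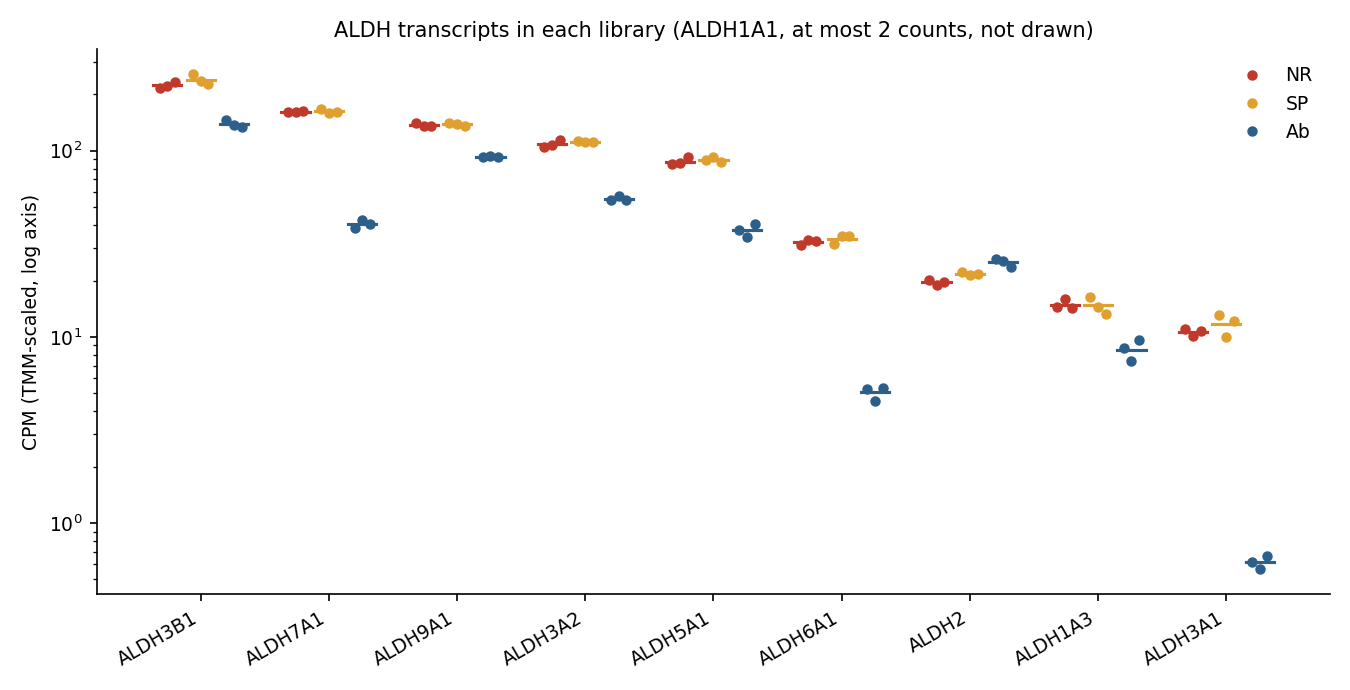
TMM-scaled CPM (log axis) of 9 listed ALDH genes in each library, with 3 points for each of the NR, SP and Ab groups and a bar at the group mean. The genes were chosen with these values known, and the distance between Ab and the particle groups is widest for ALDH3A1 and ALDH6A1.

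The promoters of 4 of the 8 listed genes matched to RefSeq, which do not include ALDH2 and ALDH3A1, are shown for their different levels: ALDH6A1 and ALDH7A1, well above Ab in both particle groups, ALDH9A1, the most abundant listed gene per exon length, and ALDH1A1, near 0 in all libraries. Each line holds the 250 bases before the RefSeq start, 5′ to 3′ on the strand of the gene, from the minus strand of GRCh38.p14 at chr14:74084454-74084703 for ALDH6A1, chr5:126595220-126595469 for ALDH7A1, chr1:165698563-165698812 for ALDH9A1 and chr9:72953054-72953303 for ALDH1A1. Capitals mark CCAAT, the letters of the CCAAT box, or its reverse complement ATTGG.

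ALDH6A1: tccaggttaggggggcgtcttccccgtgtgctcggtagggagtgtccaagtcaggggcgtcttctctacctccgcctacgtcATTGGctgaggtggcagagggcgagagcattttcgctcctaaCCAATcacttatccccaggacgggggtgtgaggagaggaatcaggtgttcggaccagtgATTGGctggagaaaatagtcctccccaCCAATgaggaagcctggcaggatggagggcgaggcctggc

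ALDH7A1: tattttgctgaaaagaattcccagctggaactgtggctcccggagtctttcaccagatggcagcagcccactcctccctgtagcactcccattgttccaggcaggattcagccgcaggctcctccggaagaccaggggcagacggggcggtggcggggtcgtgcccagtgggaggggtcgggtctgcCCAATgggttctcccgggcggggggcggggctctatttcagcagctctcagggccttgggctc

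ALDH9A1: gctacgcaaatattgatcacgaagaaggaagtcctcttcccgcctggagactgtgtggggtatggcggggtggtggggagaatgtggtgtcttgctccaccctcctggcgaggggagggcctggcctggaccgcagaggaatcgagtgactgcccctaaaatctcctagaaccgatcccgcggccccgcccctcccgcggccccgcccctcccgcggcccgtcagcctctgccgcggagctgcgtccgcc

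ALDH1A1: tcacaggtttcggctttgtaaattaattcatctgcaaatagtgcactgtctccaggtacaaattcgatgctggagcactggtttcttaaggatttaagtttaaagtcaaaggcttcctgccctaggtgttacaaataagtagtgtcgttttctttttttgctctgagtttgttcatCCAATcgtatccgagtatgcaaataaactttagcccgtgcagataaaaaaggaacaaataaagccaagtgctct

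ALDH6A1 holds 4 matches to CCAAT on both strands, beginning 168, 126, 67 and 40 bases before the start, a number that 0.991% of 35116 RefSeq promoters of 300 bases (250 before the start and 50 after it) reach or pass. ALDH7A1 and ALDH1A1 hold 1 match each, 63 and 74 bases before the start, and ALDH9A1 holds 0. The 8 listed genes matched to RefSeq have 10 promoters between them, and 5 of these hold CCAAT, beside 34.6% of all promoters. The other letters searched on both strands were TATAAA, found in 0 of the 10 promoters and 11.5% of all promoters, GCGTG, the core letters bound by the aryl hydrocarbon receptor, in 3 of the 10 and 36.5% of all promoters, and TGACNNNGC, the core letters of the antioxidant response element, in 0 of the 10 and 13.3% of all promoters. In the listed genes, no match to one motif overlapped a match to another. The guanine and cytosine content of the windows shown was 59.6% in ALDH6A1, 64.0% in ALDH7A1, 67.2% in ALDH9A1 and 38.4% in ALDH1A1. A match describes these letters only.

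The retinal dehydrogenases turn retinal into retinoic acid. ALDH1A1 (GRCh37 chr9:75515587-75695358, minus strand), the member most often used as a marker of stem-like carcinoma cells, had 0, 0 and 0 counts in NR libraries 1, 2 and 3, 0, 0 and 1 in SP, and 2, 0 and 1 in Ab. All 9 libraries were at or under the floor, so no fold is given and any difference was not detectable at this depth.

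ALDH1A3 (chr15:101417919-101456831, plus strand), a retinal dehydrogenase, was at 14.4, 16.0 and 14.3 CPM in NR, 16.5, 14.4 and 13.3 CPM in SP, and 8.65, 7.39 and 9.56 CPM in Ab. Every NR and SP library was above every Ab library, and NR and SP overlapped. The log2 fold change against Ab was 0.78 ± 0.11 (SE) for NR and 0.77 ± 0.12 for SP. An antisense gene and an unnamed gene overlap 33.3% of its exon length. ALDH1A3-AS1 had 30 to 69 counts a library, with a log2 fold change of 0.31 (edgeR adjusted p = 0.238) in NR against Ab, and strand use in the counting is not given in the sources used here. ALDH1A2, another retinal dehydrogenase, outside the list, had too few counts for the test, with 7, 5 and 1 in the NR libraries, 11, 13 and 7 in those of SP, and 1, 2 and 0 in those of Ab.

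ALDH2 (chr12:112204691-112255336, plus strand), the mitochondrial enzyme that clears acetaldehyde, was the listed gene that was lower with particles. It was at 20.3, 19.1 and 19.6 CPM in NR, 22.2, 21.5 and 21.6 CPM in SP, and 26.3, 25.6 and 23.7 CPM in Ab. The 3 groups did not overlap, with NR lowest and Ab highest. Its log2 fold change was -0.38 ± 0.08 in NR and -0.24 ± 0.08 in SP against Ab. Between NR and SP it was -0.14 ± 0.08, and this did not pass the test (edgeR adjusted p = 0.448). ALDH1B1, a mitochondrial relative of ALDH2 that also takes acetaldehyde, was higher with particles, from 34.6 to 36.5 CPM in Ab to 62.8 to 69.1 CPM in NR and 66.2 to 68.0 CPM in SP. It rose by 0.88 ± 0.06 in NR (adjusted p = 2.81e-13) and 0.89 ± 0.06 in SP (adjusted p = 2.71e-13) on the log2 scale.

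The ALDH3 enzymes oxidise medium-chain, aromatic and fatty aldehydes. ALDH3A1 (chr17:19641297-19652256, minus strand), known as a corneal crystallin and an enzyme of aldehydes from lipid peroxidation, was at 11.03, 10.1 and 10.7 CPM in NR, 13.1, 9.99 and 12.1 CPM in SP, and 0.615, 0.566 and 0.669 CPM in Ab. The Ab values rest on 12, 15 and 14 counts, against 140 to 286 counts a library in NR and SP, and the Ab libraries stood apart from all 6 others. This was the widest distance from Ab among the 9 genes compared, with a log2 fold change of 4.07 ± 0.19 in NR and 4.22 ± 0.20 in SP, or 16.9-fold and 18.7-fold.

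ALDH3A2 (chr17:19551449-19589073, plus strand), the fatty aldehyde dehydrogenase of the endoplasmic reticulum that is lost in Sjögren-Larsson syndrome, lies on the same chromosome near ALDH3A1. It was at 104, 107 and 114 CPM in NR, 113, 110.4 and 112 CPM in SP, and 53.9, 56.9 and 54.2 CPM in Ab. The particle groups overlapped each other and lay clear of Ab. Its log2 fold change was 0.95 ± 0.06 for NR and 0.996 ± 0.06 for SP, and in both it was just under the 2-fold limit, at 1.93-fold and 1.99-fold. In SP it passed that limit with DESeq2, with no filter beyond 1 count, without SP library 3 and without Ab library 2, which gave 5 called genes of the list in place of 4.

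ALDH3B1 (chr11:67776048-67796749, plus strand), an enzyme of medium- and long-chain aldehydes, was at 216, 223 and 234 CPM in NR, 257, 236 and 228 CPM in SP, and 146, 138 and 134 CPM in Ab. NR and SP overlapped, and both were above Ab. On the log2 scale it exceeded Ab by 0.66 ± 0.05 in NR and 0.76 ± 0.05 in SP. ALDH3B2, its close relative outside the list, was at 2.54 to 3.06 CPM in NR, 2.40 to 2.68 CPM in SP and 1.24 to 1.74 CPM in Ab. It rose by 0.93 ± 0.23 in NR (adjusted p = 0.000663) and 0.79 ± 0.23 in SP (adjusted p = 0.00301) on the log2 scale. How reads shared by such related genes were counted is not given in the sources used here.

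A set of 3 listed genes acts in the mitochondrial breakdown of amino acids and related compounds. ALDH6A1 (chr14:74523550-74551195, minus strand), the methylmalonate semialdehyde dehydrogenase of valine and thymine breakdown and the one family member that forms a coenzyme A ester, was at 31.2, 33.2 and 32.6 CPM in NR, 31.5, 34.7 and 34.8 CPM in SP, and 5.27, 4.53 and 5.30 CPM in Ab. The lowest particle library was at 31.2 CPM and the highest Ab library at 5.30 CPM. This put it 2.66 ± 0.10 above Ab in NR and 2.72 ± 0.10 above it in SP on the log2 scale, or 6.33-fold and 6.60-fold. BBOF1 overlaps 10.0% of its exon length and was itself higher in NR (log2 fold change 1.21, edgeR adjusted p = 2.27e-06), at 32 to 125 counts a library against 103 to 799 for ALDH6A1.

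ALDH7A1 (chr5:125866892-125931054, minus strand), or antiquitin, takes α-aminoadipate semialdehyde in lysine breakdown and betaine aldehyde. It was at 162, 161 and 163 CPM in NR, 167, 159 and 161 CPM in SP, and 38.5, 42.2 and 40.3 CPM in Ab. The coefficient of variation was 0.579% in NR, 2.59% in SP and 4.69% in Ab. Against Ab the log2 difference was 1.98 ± 0.05 in NR and 1.98 ± 0.06 in SP, or 3.94-fold and 3.95-fold. The pseudogene ALDH7A1P1, which may share reads with it, had 28 to 38 counts a library in NR and SP and 2 to 10 in Ab, beside 751 to 4137 counts for ALDH7A1.

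ALDH5A1 (chr6:24495095-24537435, plus strand), the succinate semialdehyde dehydrogenase that ends the breakdown of the transmitter GABA, was at 84.4, 85.4 and 91.9 CPM in NR, 89.3, 92.5 and 86.6 CPM in SP, and 37.4, 34.4 and 40.3 CPM in Ab. The particle groups overlapped each other and lay above Ab in every library. Log2 fold changes were 1.20 ± 0.06 for NR and 1.24 ± 0.06 for SP. GPLD1 overlaps 3.16% of its exon length and was also higher in NR, by 1.03 on the log2 scale (adjusted p = 3.53e-05).

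ALDH9A1 (chr1:165631453-165667799, minus strand), which takes γ-trimethylaminobutyraldehyde in carnitine synthesis and also aminobutyraldehyde, was at 141, 136 and 136 CPM in NR, 141, 138 and 136 CPM in SP, and 92.1, 93.7 and 92.0 CPM in Ab. It had the smallest difference among the 8 listed genes that were higher, 0.55 ± 0.05 in NR and 0.55 ± 0.05 in SP on the log2 scale, yet no particle library overlapped an Ab library.

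Among the other ALDH genes, 6 of 9 were tested, and 5 rose and 1 fell by the adjusted p against Ab in each comparison. ALDH1L2, the mitochondrial 10-formyltetrahydrofolate dehydrogenase of folate metabolism, was the gene that fell, from 179, 177 and 172 CPM in Ab to 52.7, 55.0 and 55.1 CPM in NR and 63.9, 59.9 and 59.4 CPM in SP. Its log2 fold change was -1.73 ± 0.05 in NR (edgeR adjusted p = 6.37e-22) and -1.56 ± 0.05 in SP (adjusted p = 4.83e-20). NR lay below SP in every library, by -0.17 ± 0.05, which did not pass (adjusted p = 0.148). WASHC4 and NOPCHAP1 overlap 2.91% of the exon length of ALDH1L2. In NR against Ab their log2 fold changes were -0.77 (edgeR adjusted p = 1.86e-10) and 0.17 (adjusted p = 0.123). ALDH4A1, the last enzyme of proline breakdown, rose by 2.08 ± 0.18 in NR (adjusted p = 4.83e-11) and 2.18 ± 0.20 in SP (adjusted p = 3.98e-10), from 1.32 to 2.15 CPM in Ab to 5.94 to 8.97 CPM with particles. Another annotated gene, with at most 1 count in any library, overlaps 41.8% of its exon length. ALDH18A1, which despite its name makes proline and ornithine precursors as a synthase, rose by 0.57 ± 0.05 in NR (adjusted p = 1.13e-11) and 0.56 ± 0.05 in SP (adjusted p = 7.01e-11). ALDH16A1 rose by 0.35 ± 0.09 in NR (adjusted p = 7.10e-04) and 0.42 ± 0.09 in SP (adjusted p = 1.03e-04). PIH1D1, at 615 to 1620 counts a library, overlaps exons of ALDH16A1. Its log2 fold change was -0.58 in NR (edgeR adjusted p = 2.09e-09) and -0.51 in SP (adjusted p = 8.47e-08). ALDH1L1, the cytosolic relative of ALDH1L2, was between 0 and 0.312 CPM, and ALDH8A1 at most 0.113 CPM. Over the 19 genes, 15 were tested, of which 13 were higher and 2 lower by the adjusted p in each comparison. That count includes the 9 listed genes, and the shares over all genes were 36.4% higher and 36.4% lower for NR and 36.4% and 36.6% for SP.

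**Figure D2:**
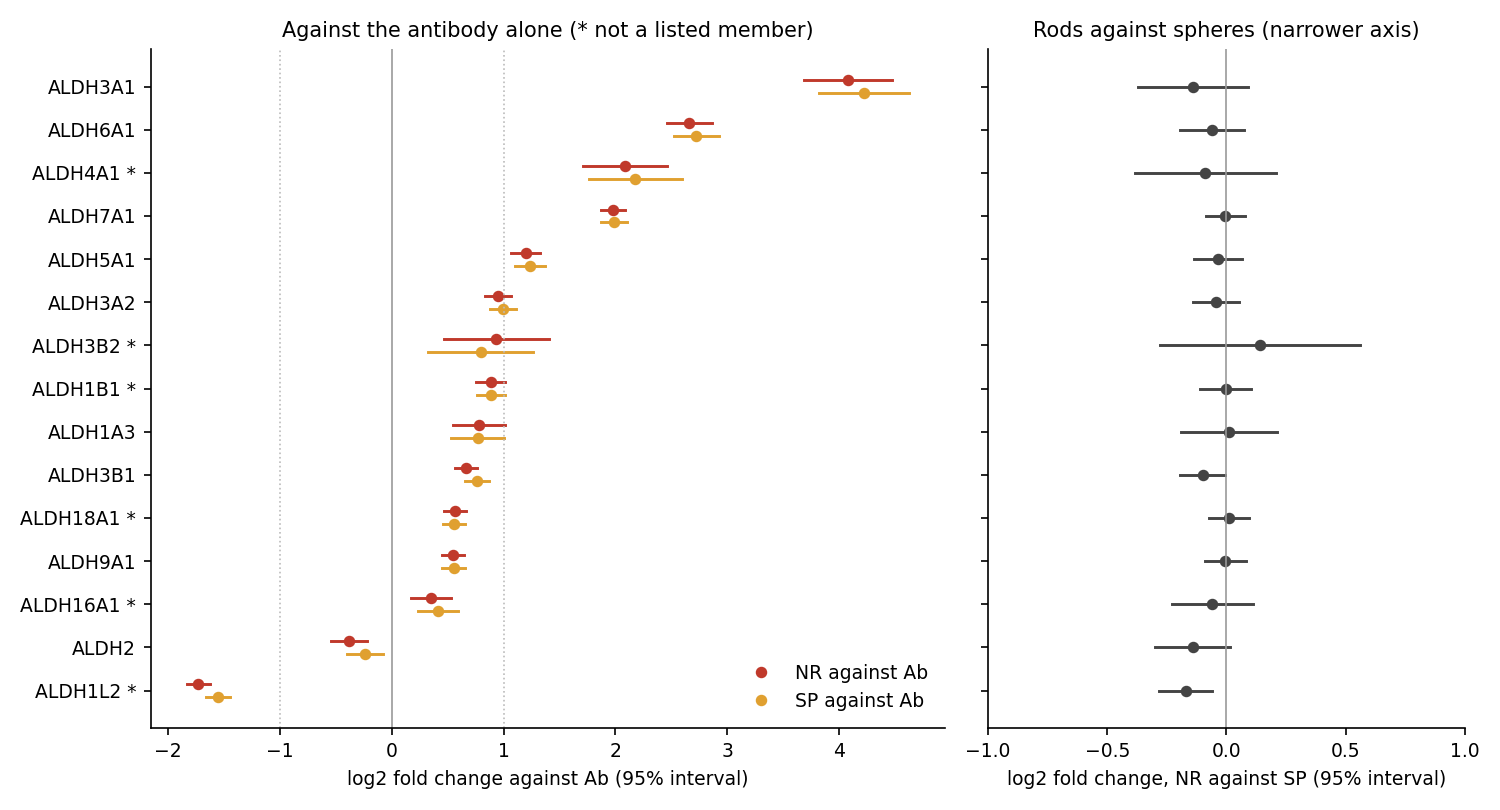
Log2 fold changes with 95% intervals of the 15 ALDH genes tested, in NR and SP against Ab (left, dotted lines at 2-fold) and in NR against SP (right, on a narrower axis), with an asterisk on genes outside the list. ALDH1L2 and ALDH2 lie left of 0 against Ab and ALDH3A1 lies farthest right, at 4.07 and 4.22, while all values of NR against SP lie between -0.17 and 0.14.

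Nanorods and nanospheres were then compared directly, at the same antibody dose and time. None of the 9 listed genes tested passed the adjusted p with edgeR, and 1 of them, ALDH3B1, had an unadjusted p under 0.05. Of the 14903 genes tested, 66 passed, or 0.443%, in either direction. For ALDH3B1 the difference was -0.10 on the log2 scale (95% interval -0.19 to -0.0066), and its edgeR adjusted p of 0.345 was the lowest of the list. The intervals of ALDH7A1 and ALDH9A1 were -0.087 to 0.079 and -0.089 to 0.081, and that of ALDH3A1, which has fewer counts, was -0.37 to 0.091. ALDH6A1 was between -0.20 and 0.075, ALDH5A1 between -0.14 and 0.067, ALDH3A2 between -0.14 and 0.052, ALDH1A3 between -0.19 and 0.21, and ALDH2 between -0.30 and 0.016. Differences of 2-fold lay outside the interval of every listed gene tested, and smaller ones within these bounds were not detectable with 3 libraries a group. The median log2 fold change of the 9 was -0.044, beside -0.00046 for all genes tested.

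Levels were compared between genes per exon length, as counts per kilobase of all annotated exons, scaled to the same total in each library as TPM is. In NR the order was led by ALDH9A1 at 166 ± 0.935 (SD, n = 3) and ALDH18A1 at 162 ± 2.95, whose libraries overlapped. ALDH3B1 followed at 123 ± 6.63, ALDH1B1 at 77.8 ± 3.50, ALDH5A1 at 41.9 ± 2.43, ALDH7A1 at 32.8 ± 0.581 and ALDH3A2 at 25.7 ± 1.61, each clear of the next. ALDH1L2, ALDH16A1 and ALDH6A1 lay at 20.7 ± 0.833, 18.1 ± 1.85 and 17.6 ± 0.794, and neighbours in that order overlapped. ALDH1A3 at 10.1 ± 0.709 and ALDH3A1 at 9.91 ± 0.364 overlapped as well, and so did ALDH4A1 at 7.40 ± 0.213 and ALDH2 at 7.33 ± 0.149. ALDH3B2 lay at 2.89 ± 0.332 and ALDH1A2, ALDH1L1, ALDH8A1 and ALDH1A1 near 0.

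The order in SP had the same first 10 genes, and ALDH9A1 was at 169 ± 4.07 and ALDH3B1 at 133 ± 9.24. In Ab, ALDH9A1 at 122 ± 3.22 and ALDH18A1 at 118 ± 2.38 again led and overlapped, and ALDH3B1 was at 83.2 ± 2.71. ALDH1L2 was next in Ab, at 73.4 ± 1.79, ahead of ALDH1B1 at 45.2 ± 1.72. ALDH2 at 10.3 ± 0.562 lay above ALDH7A1 at 8.91 ± 0.570 there, the reverse of both particle groups on this scale, and ALDH3A1 was at 0.629 ± 0.0481. The order depends on the length used. Per base of the MANE Select transcript, ALDH7A1 at 20.1 ± 1.24 was above ALDH2 at 6.25 ± 0.350 in Ab too. On that scale, added after the data were seen, ALDH3B1 came first in NR at 173 ± 9.69, before ALDH9A1 at 125 ± 0.487, and ALDH7A1 took the fourth place at 73.8 ± 1.45.

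The level summed over the 10 listed genes was, on the exon-length scale, 423, 434 and 445 in the NR libraries, 470.0, 453 and 437 in those of SP, and 267, 271 and 266 in those of Ab. NR and SP overlapped, and both lay above Ab. The means were 434 ± 11.05 (SD, n = 3) in NR, 454 ± 16.4 in SP and 268 ± 3.06 in Ab, which is 1.62 and 1.69 times Ab. The NR mean differed from the SP mean by -19.4. Over all 19 genes the sum was 724 ± 13.3 in NR, 750 ± 24.2 in SP and 523 ± 8.01 in Ab.

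Within that family sum, on the exon-length scale, ALDH9A1 had a share of 22.9% ± 0.536 in NR, 22.5% ± 0.187 in SP and 23.3% ± 0.513 in Ab (SD, n = 3). ALDH18A1 made up 22.5% ± 0.267, 21.8% ± 0.665 and 22.5% ± 0.312. The share of ALDH1L2 was 14.0% ± 0.142 in Ab and 2.86% ± 0.0732 and 3.15% ± 0.0616 in NR and SP. ALDH7A1 held 1.70% ± 0.102 in Ab and 4.53% ± 0.0109 in NR, and ALDH5A1 3.74% ± 0.328 and 5.78% ± 0.231. The shares depend on the length used. Per base of the MANE Select transcript, ALDH9A1 held 17.6% in NR, 17.2% in SP and 19.2% in Ab, and ALDH7A1 held 10.4% in NR and 4.21% in Ab, while ALDH1L2 held 2.23% in NR and 11.8% in Ab. Shares sum to 100%, so a lower share of one gene raises the others.

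**Figure D3:**
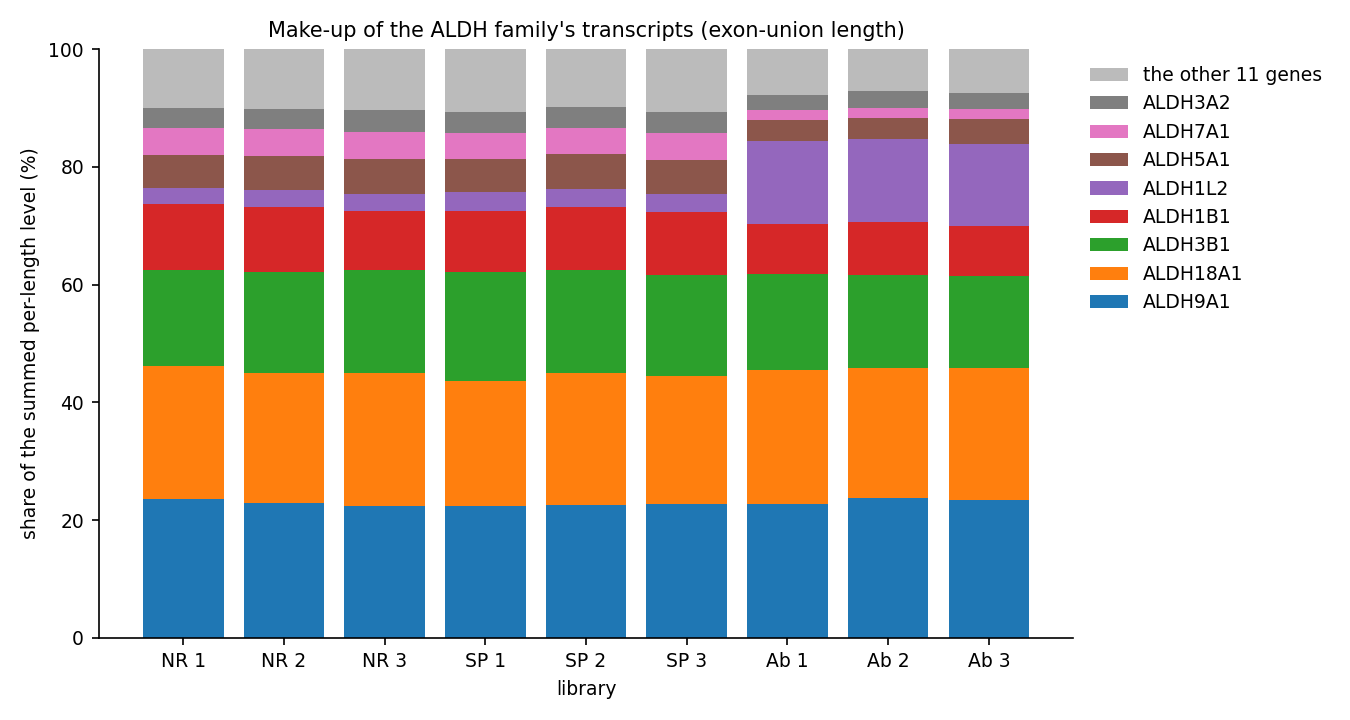
Share (%) of each ALDH gene in the family's summed per-length level, in stacked bars for each of the 9 libraries, with the 8 genes of highest mean share named and the other 11 joined. The purple ALDH1L2 band is wide in the 3 Ab libraries, at 14.0% on average, and narrow in NR and SP, while the ALDH9A1 band is at 22.5% to 23.3% on average on this exon-union scale.

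The genes with the pattern nearest to 2 listed genes were sought among 15456 genes outside the family, by the root mean square difference of log2 CPM around each gene's own mean over the 9 libraries. Nearest to ALDH9A1, the listed gene of highest per-length level, were HSPA8 (0.0203), HNRNPC (0.0218) and SLC2A4RG (0.0220). Nearest to ALDH3A1, the gene farthest from Ab, were ZNF488 (0.103), CLIC3 (0.160) and EHF (0.177). ZNF488 had 29, 32 and 32 counts in Ab and 296 to 534 in NR and SP, EHF had 6, 13 and 10 in Ab and 118 to 223, and CLIC3 had 8, 9 and 10 in Ab and 81 to 170. The likeness describes the 9 libraries, which share the 3 treatments.

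Genes around the ALDH reactions were read from fixed lists, whose members not in the ALDH family were tested over all genes. The lists were chosen with earlier results of these data known, so their counts describe them and are no test of them. In retinoid metabolism, 19 of 30 genes were tested in NR against Ab, of which 10 rose and 8 fell by the adjusted p, and 6 were called higher and 2 lower at 2-fold. Beside this and the lists that follow stand the shares over all genes tested: 36.4% rose and 36.4% fell by the adjusted p in NR, 36.4% and 36.6% in SP, and at 2-fold 12.4% were called higher and 10.3% lower in NR. CYP26B1, which degrades retinoic acid, fell from a mean of 95.7 CPM in Ab to 16.7 CPM in NR, by -2.53 ± 0.07 (edgeR adjusted p = 2.50e-22) on the log2 scale. RBP4, the retinol carrier, rose by 1.38 ± 0.06 (adjusted p = 1.16e-17), and its receptor STRA6 by 0.90 ± 0.07 (adjusted p = 4.88e-12). RARRES2, named for its response to retinoids, rose by 4.46 ± 0.22 (adjusted p = 1.57e-16), from 0.34 to 0.41 CPM in Ab to 8.20 to 8.75 CPM in NR. The same 4 genes had log2 fold changes of -2.39, 1.51, 1.09 and 4.06 in SP against Ab. In SP, 10 of the list rose and 9 fell.

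Of the alcohol dehydrogenases that feed aldehydes to the ALDH enzymes, ADH1A, ADH1B, ADH1C, ADH4, ADH6 and ADH7 were at the floor in all libraries, and ADH5, the formaldehyde-handling form, was at a mean of 126 CPM in Ab and 141 CPM in NR. On their whole list, with amine oxidases and carbonyl reductases, 10 of 19 genes were tested, 7 rose and 2 fell in both comparisons, where 36.4% of all genes rose in each and 36.4% fell in NR and 36.6% in SP. MAOB, the monoamine oxidase that releases aldehydes from amines, was at 51.3, 46.1 and 46.3 CPM in Ab and at 295, 303 and 301 CPM in NR. It rose by 2.62 ± 0.05 in NR (adjusted p = 1.11e-25) and 2.65 ± 0.05 in SP (adjusted p = 7.25e-25). CAT, the catalase that removes hydrogen peroxide, rose by 1.93 ± 0.06 (adjusted p = 7.80e-21) in NR, and the carbonyl reductase CBR1, of whose exon length other genes overlap 18.9%, by 1.07 ± 0.09 (adjusted p = 6.00e-12). DHRS2, a short-chain reductase, fell by 1.53 on the log2 scale (adjusted p = 1.14e-12).

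Branched-chain amino acid breakdown, in which ALDH6A1 acts, was higher with particles in most of its genes: 25 of 27 were tested, 21 rose, 1 fell and 3 did not pass in both comparisons, and 9 were called higher at 2-fold in each. Over all genes, 36.4% rose by the adjusted p in either comparison, and 12.4% in NR and 12.6% in SP were called higher. This list too was chosen with earlier results known, so its counts are a description. Among the genes named from this list, glmTreat, which tests the 2-fold limit itself, ended the NR calls of MCCC2 (adjusted p = 0.135) and ACAT1 (adjusted p = 0.0815). In SP it ended that of MCCC2 (adjusted p = 0.0511). The other called genes of the list were not followed singly under glmTreat. The list's medians on the log2 scale were 0.86 for NR and 0.87 for SP, beside -0.0055 and -0.0067 for all genes tested. PCCB, a subunit of propionyl-CoA carboxylase, rose by 1.35 ± 0.06 in NR (edgeR adjusted p = 1.26e-17). ECHS1, the enoyl-CoA hydratase, rose by 1.27 ± 0.05 (adjusted p = 6.14e-19), HADHA of the trifunctional protein by 1.13 ± 0.04 (adjusted p = 2.83e-19) and MCCC2 of leucine breakdown by 1.07 ± 0.05 (adjusted p = 1.78e-17). STAG1 overlaps 22.2% of the exon length of PCCB. MCEE fell, by 0.26 on the log2 scale (adjusted p = 0.0173).

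ACAT1, the acetyl-CoA acetyltransferase that ends isoleucine breakdown, was the gene of all these lists that passed the adjusted p in NR against SP. It was at 121, 126 and 119 CPM in NR, 99.98, 104 and 113 CPM in SP and 57.5, 54.8 and 56.2 CPM in Ab. NR lay above SP in every library, by 0.21 on the log2 scale (edgeR adjusted p = 0.0482), but with single libraries removed in turn the adjusted p was 0.0514 to 0.213 in 5 of 6 refits.

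Around ALDH5A1, the GABA shunt list had 10 of 14 genes tested, of which 4 rose and 3 fell in NR and 4 rose and 2 fell in SP. Over all genes 36.4% rose in each comparison, and 36.4% in NR and 36.6% in SP fell, so the NR counts are near the background and no result about the list. AKR7A2, which reduces succinate semialdehyde and so shares the substrate of ALDH5A1, rose by 1.56 ± 0.07 in NR (adjusted p = 5.54e-18). SUCLG2, a subunit of succinyl-CoA ligase, rose by 1.52 ± 0.06 (adjusted p = 1.03e-19), and OGDH, of the oxoglutarate dehydrogenase complex, by 0.74 ± 0.04 (adjusted p = 1.06e-14). GPT2, the mitochondrial alanine transaminase, fell from 114 to 121 CPM in Ab to 27.6 to 31.8 CPM in NR, by -2.04 ± 0.06 (adjusted p = 1.62e-21). ABAT, the GABA transaminase that makes the substrate of ALDH5A1, had a mean of 0.166 CPM in Ab and was at the floor in NR and SP.

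For ALDH7A1 and ALDH9A1, the list of lysine breakdown and carnitine synthesis had 9 of 13 genes tested, of which 6 rose and 3 fell in NR and 5 rose and 3 fell in SP, where 36.4% of all genes rose in each comparison and 36.4% fell in NR and 36.6% in SP. GCDH, the glutaryl-CoA dehydrogenase, rose by 1.06 ± 0.08 in NR (adjusted p = 9.71e-13), SHMT1 by 0.70 ± 0.07 (adjusted p = 7.29e-10) and DHTKD1 by 0.57 ± 0.06 (adjusted p = 4.34e-10). SHMT2, the mitochondrial serine hydroxymethyltransferase, fell from 590 to 659 CPM in Ab to 209.7 to 213 CPM in NR, by -1.57 ± 0.05 (adjusted p = 1.05e-21).

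Around ALDH3A2, 16 of 18 genes on the list of fatty aldehyde sources were tested, and 6 rose, 7 fell and 3 did not pass in both comparisons, with a median of -0.049 in NR and 0.028 in SP. Over all genes 36.4% rose in each and 36.4% fell in NR and 36.6% in SP, so these counts are near the background and are no result about the list. SGPL1, the lyase that releases hexadecenal from sphingosine phosphate, fell by 0.92 on the log2 scale in NR (adjusted p = 2.91e-15). SPHK1, the kinase before it, fell by 2.08 (adjusted p = 6.29e-23). The ceramidase ASAH1 rose by 0.95 ± 0.06 (adjusted p = 3.05e-14), and SLC27A2, a very-long-chain acyl-CoA synthetase that ATP8B4 overlaps over 19.9% of its exon length, by 1.57 ± 0.06 (adjusted p = 9.41e-20).

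ALDH3A1 belongs to the gene battery of the aryl hydrocarbon receptor, of which 7 of 10 other genes were tested in NR against Ab. One of them, NQO1, rose, from 78.0 to 80.3 CPM in Ab to 239 to 244 CPM in NR, by 1.58 ± 0.05 (adjusted p = 7.45e-22), and 4 fell. The receptor gene AHR fell by 1.03 on the log2 scale (adjusted p = 2.60e-16), CYP1B1 by 1.39 (adjusted p = 1.57e-14) and TIPARP by 0.41 (adjusted p = 3.39e-08). CYP1A2, UGT1A6 and GSTA1 were at the floor in all libraries. In SP, 2 rose and 4 fell. Of all genes, 36.4% rose in each comparison, and 36.4% in NR and 36.6% in SP fell. Other annotated genes overlap 19.4% of the exon length of NQO1 and 35.2% of that of AHR.

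**Figure D4:**
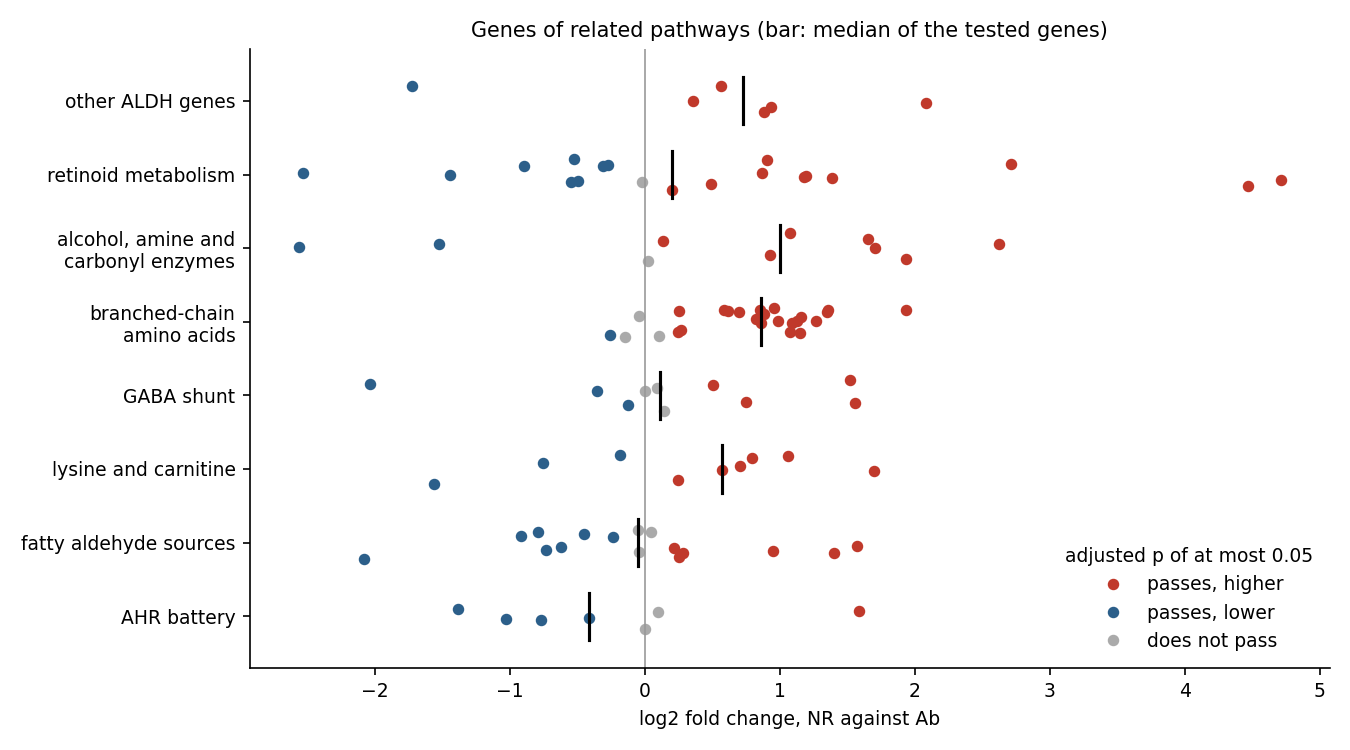
Log2 fold change in NR against Ab of each tested gene on 8 fixed lists, with a bar at each list's median and colours for the direction of genes past an adjusted p of 0.05. The branched-chain list lies mostly right of 0, with a median of 0.86, while the fatty aldehyde list is spread on both sides around -0.049 and the AHR list lies mostly left of 0.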

How the data were processed

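The authors discarded reads with adapter sequence, with unknown bases or of low quality, mapped the remainder with HISAT2 2.1.0 to the human genome (hg19 in the paper, mm9 in the submitters' notes, human Ensembl IDs in the data) and deposited whole read counts per gene, unscaled. The paper names both Counts and HTSeq as the counter, and the annotation release and strand setting are not given in the sources used here. GENCODE 44 on GRCh37 gave names and positions for 59858 of 60880 IDs. Counts on unmatched IDs were no more than 0.115% in any library.

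Groups were compared in pairs, each on its own 6 libraries, with edgeR 4.0.16 (TMM, filterByExpr with minimum count 10 and total 15, robust quasi-likelihood test, Benjamini-Hochberg adjustment over all genes). The test was checked on simulated data. Levels between genes were scaled by exon-union length. Between libraries of 1 group the chi-square per gene was 1.80 to 6.81, more than sampling noise gives, so no library was taken as a repeat deposit of another. DESeq2 1.42.0, RLE size factors, other filters, glmTreat, 1 fit of 9 libraries, a replicate block and leaving out each library were alternatives.

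The members, lists and rules were chosen with earlier results of these data known. Named were all ALDH genes, the 4 genes of each list with the smallest p in NR against Ab, list genes that passed in NR against SP, and the 3 nearest patterns of 2 members; ADH genes, MCEE, ABAT and genes at the floor or overlapping others were named after their values were seen. A planned protein comparison was not run. PECAM1 was not analysed here.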

Additional observations from a re-analysis of the deposited data

Results flagged for a closer look

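The log2 fold change of ACAT1 in NR against SP was 0.21, and this test of the difference between the 2 particle groups passed with edgeR (adjusted p = 0.0482). NR was above SP in 3 of 3 libraries. The adjusted p was 0.0716 with all 9 libraries in one fit and 0.0791 with a replicate block. Groups of 3 libraries were not examined for single outlying values.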

How the results depend on the processing

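The listed genes were chosen by their differences from Ab, so how these fared is a description and no support for them: the 9 tested kept their direction and stayed past an adjusted p of 0.05 against Ab under every alternative run but glmTreat, which tests the 2-fold limit and called 4 of them. None of the 9 passed in NR against SP under any, though DESeq2 gave no adjusted p there for ALDH1A3, ALDH2, ALDH3A1 and ALDH6A1. With glmTreat, 2061 genes were called in NR against Ab in place of 3409, and 2131 in SP against Ab in place of 3502. Among the genes named by rule from the lists around the ALDH reactions, it also ended the calls of CBR1 and GCDH in both comparisons, of MCCC2 in both, of ACAT1 and AHR in NR and of STRA6 in SP. Other called genes of these lists were not followed singly. Counts for NR against SP depended on the setting. Genes past the adjusted p were 66, but 143 with DESeq2, 328 with no filter beyond 1 count, and 10 to 188 without 1 library each (10 without NR library 2, 188 without SP library 3). Those also 2-fold were 3, but 0 with DESeq2, 27 with no filter, 0 with glmTreat and 0 to 28 without 1 library each. The summed level of the listed genes was 1.62 times Ab in NR and 1.69 in SP, but 1.79 and 1.87 with longest transcripts, 1.97 and 2.04 as CPM, and 1.73 and 1.82 with MANE Select lengths, chosen after seeing the data like the fit without mitochondrial genes. Without 1 library each, the ratios were 1.60 to 1.64 in NR and 1.66 to 1.72 in SP. The cause of these shifts was not tested.

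Nothing in the labels says whether libraries of the same replicate number were paired. The correlation of deviations was -0.032 to 0.028 between same-numbered libraries and -0.034 to 0.035 between the others. For SP and Ab, same-numbered pairs were at 0.020 to 0.028 and the others were negative. Values this small do not decide whether libraries were paired. With the replicate number as a block, 3414 genes were called in NR against Ab, 3493 in SP against Ab and 4 in NR against SP, and 10630, 10970 and 51 passed the adjusted p. ACAT1 no longer passed the adjusted p in NR against SP (adjusted p = 0.0791), and no call of a listed gene changed. Depth limits ALDH1A1, ALDH1A2, ALDH1L1 and ALDH8A1, which had too few counts to compare.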
